A study of Sparassis latifolia with 12 samples.

Results

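The 71 lncRNAs described here were measured in fruiting bodies of *Sparassis latifolia* during cold storage. Their values were lower on days 8 and 16 than in fresh fruiting bodies and on day 24. In 10 of them, given further on, day 24 replicates 1 and 2 still lay far below the fresh values. All 71 were chosen by their measured values from the 1003 lncRNAs of the deposited table. Their mean FPKM (fragments per kilobase of transcript, scaled to the mapped fragments of the library) over the 12 libraries was from 5 to under 500, a window that held 860 lncRNAs. Their lowest value among the 6 libraries of days 0 and 24 was above 0 and at least 1.5 times the highest among the 6 libraries of days 8 and 16. A last condition asked that the highest day 24 value, times 1.5, was above the lowest day 0 value. XLOC_002302, named as an exception when the lncRNAs were chosen, did not meet these conditions in any case. Because these values chose the lncRNAs, their differences between days 0 and 24 on one side and days 8 and 16 on the other are a description, without a test.

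The libraries came from fruiting bodies of strain Minxiu No.1 that were packed in oriented polypropylene film and kept at 4 ℃. They were frozen fresh (day 0, group A) or after 8 (group B), 16 (group C) or 24 days (group D) of storage, with 3 replicates each. Whether replicates came from different packages or mushrooms is not stated, so that a p-value here covers only the spread among these libraries, possibly a technical one. Ribosomal RNA was removed and a strand-preserving kit was used, and RNA of the fruiting body as a whole was measured, so that fewer cells of a type and less RNA per cell cannot be told apart.

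LncRNAs are long transcripts with little protein-coding potential. In the yeast *Saccharomyces cerevisiae*, where fungal examples are best studied, transcription of the lncRNA SRG1 through the promoter of SER3 keeps that serine biosynthesis gene off, and antisense transcripts act on PHO84, a phosphate transporter gene. Such RNAs can act on neighbouring genes (in cis) or on distant ones (in trans). No role is annotated for any of the 71 lncRNAs in the tables used here, and their sequences and positions were not analysed here. The lncRNAs of this table include ones that overlap or lie antisense to mRNAs. The sources used here do not give whether the FPKM estimates used the strand, so that reads of an lncRNA and of an overlapping gene may not be separated.

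The day groups of this pattern also differed as libraries. Groups B and C had 821 to 876 lncRNAs and 10956 to 11061 mRNAs above 0 per library, and group A 989 to 999 and 12636 to 12886. In group D, replicates 1, 2 and 3 had 950, 914 and 995 lncRNAs and 11480, 11133 and 12789 mRNAs above 0, so that by these counts replicate 3 stood with the fresh libraries. The sequencing summary of the paper lists a lower base error rate and longer clean reads for each library of groups B and C than for any of groups A and D. By its share of mapped reads, group D replicate 3 did not stand with the fresh libraries. That share was the lowest of all libraries, and its uniquely mapped share was the lowest of group D. All libraries of groups B and C except group C replicate 3 had more clean reads than any of groups A and D. The uniquely mapped share was lower in each library of groups B and D than in any of groups A and C. Groups B and C were thus not alike in mapping, and neither were groups A and D. For the difference between days 0 and 24 and days 8 and 16, read quality and storage time cannot be told apart. The depth behind a single FPKM value is unknown.

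**Figure D1:**
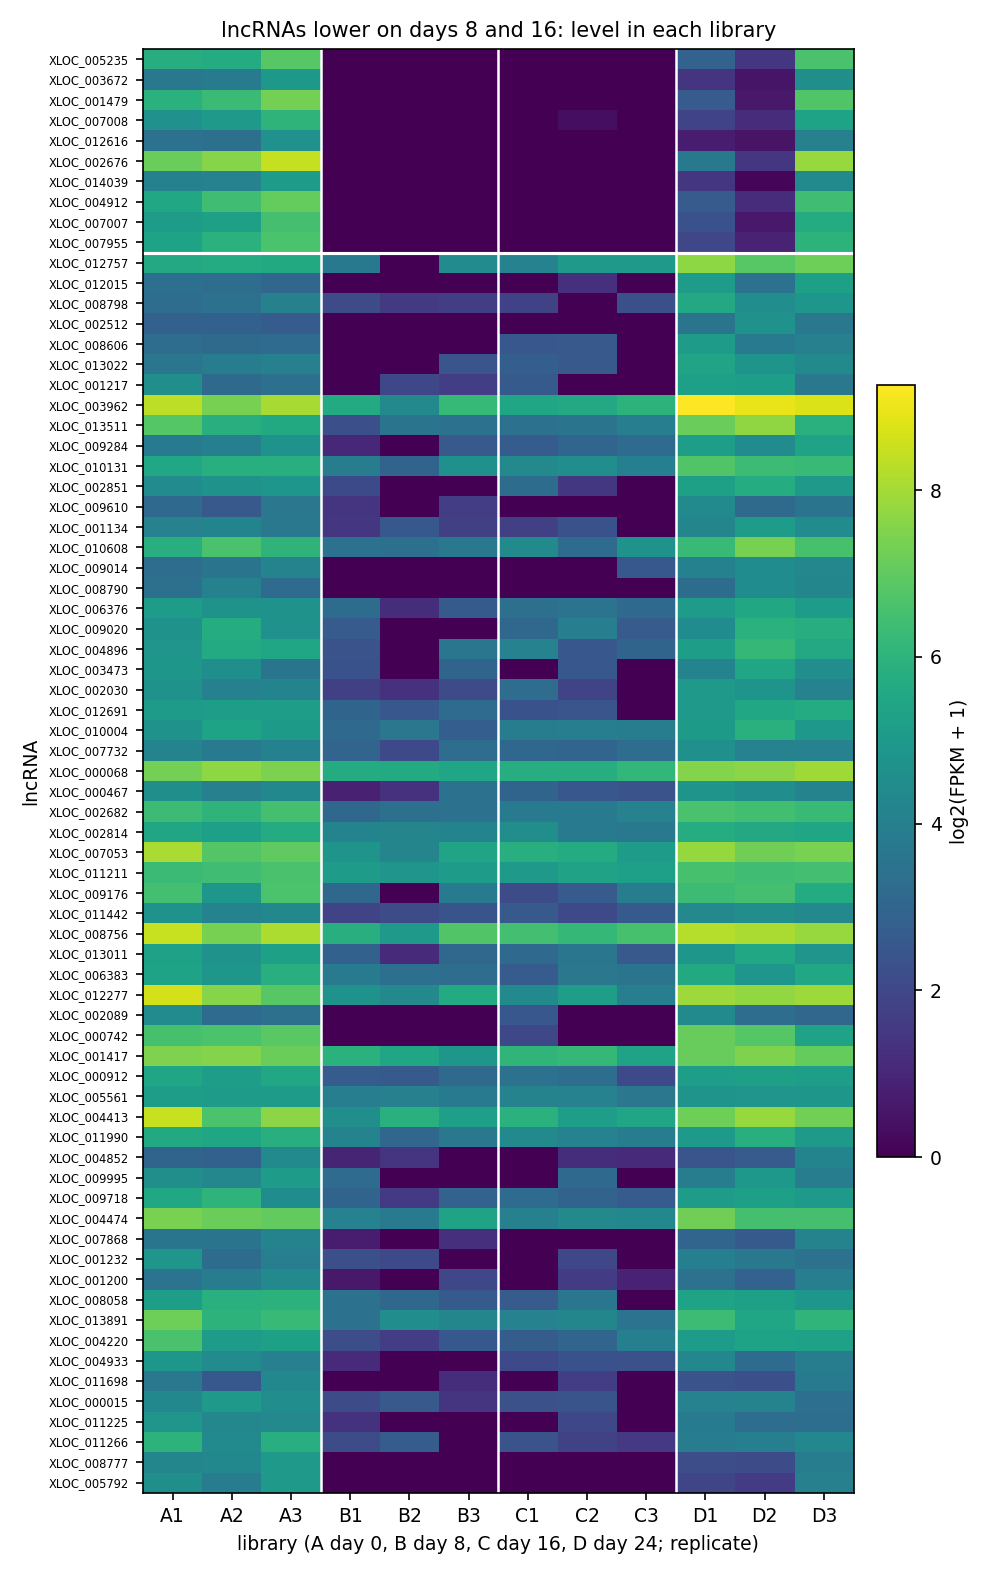
Level of the 71 lncRNAs (rows) in each of the 12 libraries (columns, replicates 1 to 3 of groups A, day 0, B, day 8, C, day 16, and D, day 24), as log2(FPKM + 1). The 10 rows above the white line had a group D replicate 3 at least 10 times replicates 1 and 2, and the other 61 are ordered by the ratio of the day 24 to the day 0 mean, from 3.22 to 0.294.

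Most members were of moderate level. By the mean over the 12 libraries, 35 lay from 5 to under 20 FPKM, 22 from 20 to under 50, 7 from 50 to under 100 and 7 at 100 or more. The median over the members was 29.1, 29.1 and 33.1 FPKM in replicates 1, 2 and 3 of group A, 3.37, 1.32 and 3.29 in group B, 4.94, 4.69 and 1.87 in group C, and then 30.4, 27.6 and 30.5 in group D. The median of the 860 lncRNAs of the same level window stayed at 30.5 to 36.8 FPKM in the 12 libraries. For the members, limma called 71 of 71 lower in group B than in group A (background 32.9% of the 1002 lncRNAs tested) and 67 lower in group C (background 30.2%). It called 67 higher in group D than in group B (background 23.2%) and 66 higher than in group C (background 16.6%). An lncRNA was called where the adjusted p lay below 0.05 and the fitted level differed at least 2-fold. The rule chose the members on these contrasts, so nothing is read from these counts. All 71 passed the filter on low values, an FPKM of at least 1 in 3 libraries.

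The depth of the dip varied widely. In 27 members every library of groups B and C had a value above 0, and in 13 members all 6 libraries were listed at 0. For the 58 members with a value above 0 in at least 1 of the 6 libraries, the ratio of the lowest value of groups A and D to the highest of groups B and C was 1.5 to 13.2, with a median of 2.13. Of all members, 45 kept the pattern at a ratio of 2 and 23 at a ratio of 3, counting those listed at 0 in groups B and C. XLOC_007732, XLOC_009020 and XLOC_000467 lay just inside the limit, with lowest values of 13.6, 21.9 and 15.5 FPKM against highest ones of 9.01, 14.5 and 10.2. XLOC_007160, XLOC_004830 and XLOC_010166 lay just outside it, with 75.4 against 50.4, 8.52 against 5.84 and 9.29 against 6.50 FPKM.

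Among the 58 members with a value above 0 in group B or C, XLOC_000742 had the widest gap. Its FPKM was 94.8, 99.1 and 118 in replicates 1, 2 and 3 of group A, 0 in the 3 of group B, 2.99, 0 and 0 in group C, and then 137.6, 111 and 39.4 in group D. Groups A and D overlapped, and replicate 3 was the low one of group D. XLOC_012015 had 9.54, 8.89 and 7.40 FPKM on day 0, was listed at 0 in 5 libraries of groups B and C and had 1.41 in the sixth, group C replicate 2, and reached 34.1, 10.3 and 37.9 on day 24. XLOC_002682 was measured in all 12 libraries, with 80.8, 63.5 and 92.3 FPKM in group A, 7.80, 9.57 and 10.1 in group B, 13.5, 12.7 and 16.4 in group C, and then 97.4, 87.0 and 74.7 in group D. All its day 16 values lay above its day 8 values, and those of day 24 were in or near its fresh range.

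XLOC_012691 and XLOC_007868 also had wide gaps, 3.752 and 3.775 times. XLOC_012691 had 32.8, 35.6 and 36.0 FPKM on day 0, at most 8.42 on days 8 and 16 and 31.6, 44.9 and 51.0 on day 24. XLOC_007868 had 11.1, 10.8 and 16.9 FPKM on day 0, at most 1.37 on days 8 and 16 and 7.12, 5.16 and 16.5 on day 24. XLOC_007008 completed the 6 widest gaps, at 4.69, and belongs to a set of its own given further on.

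The 4 most abundant members kept a clear level on days 8 and 16. XLOC_003962 had the highest mean, 217 FPKM, with 319.6, 163 and 266 on day 0, 49.8, 19.5 and 73.0 on day 8, 42.2, 46.8 and 62.3 on day 16, and then 614, 500.2 and 443 on day 24. Its day 24 values all lay above its day 0 values. XLOC_008756 had 356, 162 and 277 FPKM on day 0, 30.8 to 106 on days 8 and 16 and 303, 269.6 and 228 on day 24, a near return with a day 24 mean of 1.01 times the day 0 mean.

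XLOC_012277 and XLOC_000068 differed in how well the fresh replicates agreed. XLOC_012277 had 403, 192 and 114.8 FPKM on day 0, 14.7 to 49.7 on days 8 and 16 and 238, 216 and 237 on day 24. XLOC_000068 had 160.1, 207 and 173 FPKM on day 0, 42.9 to 68.9 on days 8 and 16 and 184.5, 201.5 and 247 on day 24. The fresh replicates of XLOC_011698 (12.1, 4.91 and 19.2 FPKM) and XLOC_004413 (354, 99.4 and 200.2 FPKM) were wide as well, and over all members the ratio of the highest to the lowest day 0 replicate was 1.06 to 3.92, with a median of 1.84.

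**Figure D2:**
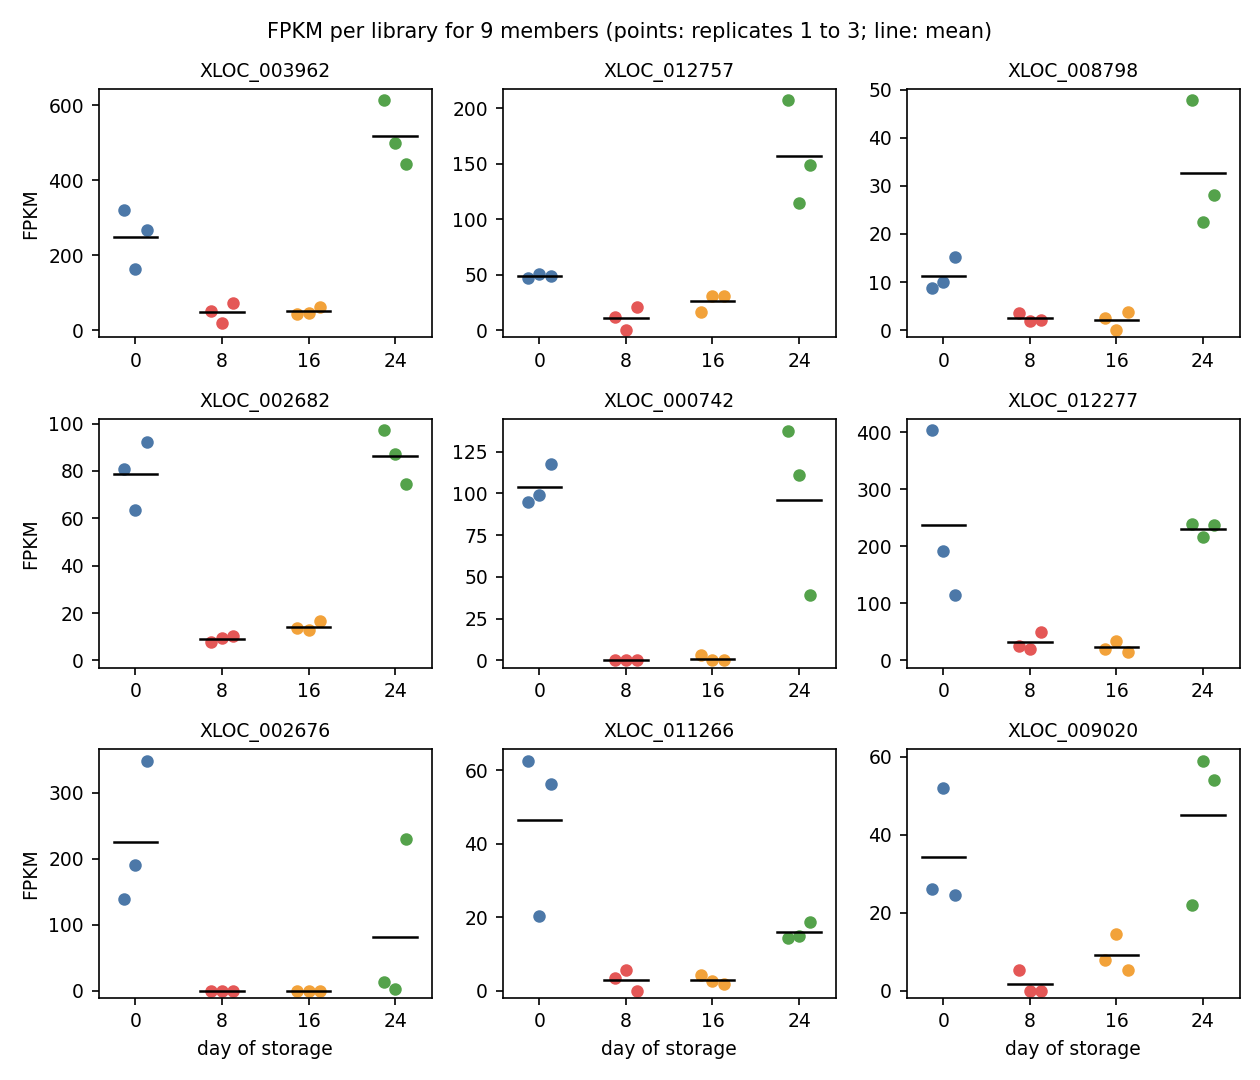
FPKM of 9 members by day of storage, with 1 point for each of the 3 replicates of a day and a line at their mean, each panel on its own linear axis from 0. XLOC_003962, XLOC_012757 and XLOC_008798 lay higher on day 24 than on day 0 in all 3 replicates, XLOC_011266 lay lower, and XLOC_002676 had a single high day 24 replicate.

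On day 24 the members as a set were at about the fresh level, and single members lay well above or below it. The day 24 mean was 0.294 to 3.22 times the day 0 mean, with a median of 0.975. Over the 61 members outside the set of 10 given further on, the median was 1.03. The day 24 mean lay within 1.5 times of the day 0 mean in 37 members, at 1.5 times or more in 16 and at 1/1.5 or less in 18. Values of groups A and D overlapped in 56 members. All day 24 values lay above all day 0 values in 10 members (14.1%, background 18.3% of the 860 lncRNAs of the window) and below them in 5 (7.04%, background 16.3%). The rule asks every day 24 value to exceed those of days 8 and 16, so these shares are a description as well. Without its last condition 73 lncRNAs met the rule. By limma no member was called between groups D and A (background 10.3% called in either direction), with 16 of 71 at an unadjusted p under 0.05, against 358 of the 1002 lncRNAs tested. With only groups A and D in the fit and the replicate number as a block, 1 was called, XLOC_012757 (background 11.1%, in a fit chosen after seeing the data). Single libraries changed these calls: without group D replicate 3, 13 members were called (12 lower and 1 higher on day 24, background 22.6%), and without group B replicate 2 it was 2, XLOC_003962 and XLOC_012757 (105 of all 1002 lncRNAs). The paper, using DESeq2, reports XLOC_003962 and XLOC_008798 as lower in groups B and C and higher in group D than in group A. In the main limma fit here, their log2 fold changes between groups D and A were 1.07 and 1.39 (limma adjusted p = 0.0907 and 0.122). That fit used FPKM and no count model, so the calls of the 2 methods are not directly comparable.

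Among the 10 members with day 24 above day 0, XLOC_012757 and XLOC_012015 had the highest ratios of day 24 to day 0 in FPKM as deposited. It had 46.8, 50.6 and 48.5 FPKM on day 0, 12.3, 0 and 21.0 on day 8, 16.3, 30.5 and 30.7 on day 16, and then 206.8, 114.7 and 149 on day 24. Its mean on day 24 was 3.22 times that of day 0, and the fresh replicates were nearly equal. XLOC_012015, given above, was at 3.185 times, with a low second replicate on day 24 that still lay above its fresh values. Their order depended on the processing: with quantile normalization the log2 ratio was 1.78 for XLOC_012757, below XLOC_012015 (2.76), XLOC_008798 (2.44) and XLOC_002512 (2.28), and without group D replicate 2 it was 1.87, against 2.06 for XLOC_012015.

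XLOC_008798 and XLOC_002512 followed, at 2.88 and 2.7 times. XLOC_008798 had 8.86, 9.99 and 15.2 FPKM on day 0, 3.46, 1.98 and 2.215 on day 8, 2.46, 0 and 3.85 on day 16, and then 47.8, 22.5 and 28.0 on day 24. XLOC_002512 had 6.26, 6.34 and 5.51 FPKM on day 0, was listed at 0 in all libraries of days 8 and 16, and had 10.8, 25.9 and 12.1 on day 24. XLOC_001134, XLOC_002851, XLOC_003962, XLOC_008606, XLOC_010131 and XLOC_013022 were the others, at 1.59 to 2.43 times (named after their values were seen, apart from XLOC_003962).

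The 5 members with all day 24 values below day 0 were XLOC_000015, XLOC_005561, XLOC_008777, XLOC_011225 and XLOC_011266, of which the first 2 were named after their values were seen. XLOC_005561 differed least of them, with 34.5, 32.6 and 32.7 FPKM on day 0, 11.6 to 16.8 on days 8 and 16 and 26.7, 27.6 and 28.8 on day 24. XLOC_011225 had 27.8, 18.3 and 19.4 FPKM on day 0, at most 2.99 on days 8 and 16 and 13.4, 9.03 and 9.12 on day 24. XLOC_008777 had 18.2, 19.0 and 31.3 FPKM on day 0, was listed at 0 on days 8 and 16, and had 3.59, 3.33 and 13.9 on day 24.

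Of the 62 lncRNAs in the study's list of lncRNA-enzyme pairs, which was chosen on these samples, 2 were members, XLOC_011225 and XLOC_011266. XLOC_011266 had 62.6, 20.4 and 56.4 FPKM on day 0, 3.37, 5.52 and 0 on day 8, 4.18, 2.58 and 1.87 on day 16, and then 14.3, 14.8 and 18.8 on day 24, its day 24 values lying between those of days 16 and 0. Both are paired in trans with ERG25, a methylsterol monooxygenase of ergosterol synthesis, the pathway that makes the main sterol of fungal membranes. The paper chose its trans pairs by the correlation of lncRNA and mRNA expression, so a similar course of both is part of that choice. The mRNA of ERG25 had a mean of 496 ± 231 FPKM on day 0, 71.8 ± 3.06 on day 8, 63.2 ± 4.29 on day 16, and then 121 ± 20.9 on day 24 (SD, n = 3 each).

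XLOC_011266 is paired in addition with ERG4, a sterol reductase, ERG13, the hydroxymethylglutaryl-CoA synthase early in the pathway, and ERG3, a sterol desaturase. On day 0 the means of these mRNAs were 131 ± 76.9, 285 ± 190 and 169 ± 96.6 FPKM (SD, n = 3 each). On day 8 they were 26.7 ± 8.85, 60.8 ± 13.6 and 20.4 ± 3.34. Their day 24 means, 19.3 ± 3.33, 49.5 ± 12.1 and 28.3 ± 11.9 FPKM (SD, n = 3 each), lay beside day 16 means of 18.6 ± 1.31, 45.1 ± 10.4 and 16.3 ± 2.84. None of these 4 mRNAs met the rule of the members. In XLOC_011225, replicates 2 and 3 of group A lay close, at 18.3 and 19.4 FPKM. Replicate 2 of group A was the low one for XLOC_011266, at 20.4 FPKM, and also for ERG25, at 230.3 FPKM against 650.5 and 607 in replicates 1 and 3. It was the low one for ERG4, ERG13 and ERG3 as well. Because the pairs were chosen for correlated expression, this shared low replicate is no evidence of a link. None of the 18 mRNAs that the paper names with an enzyme or for RT-qPCR met the rule, and none of the 6 lncRNAs it measured by RT-qPCR was a member.

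A set of 10 members met the rule only with a single day 24 library, replicate 3. In XLOC_001479, XLOC_002676, XLOC_003672, XLOC_004912, XLOC_005235, XLOC_007007, XLOC_007008, XLOC_007955, XLOC_012616 and XLOC_014039, replicate 3 of group D was at least 10 times replicates 1 and 2 (11.6 to 25.01 times the higher of them; the set was formed after its values were seen). XLOC_002676, the most abundant of them, had 139, 191 and 348.5 FPKM on day 0, was listed at 0 in all 6 libraries of days 8 and 16, and had 12.3, 1.74 and 229.6 in replicates 1, 2 and 3 of day 24. XLOC_001479 had 59.6, 78.04 and 158.5 FPKM on day 0 and 5.32, 0.563 and 107.5 on day 24, and 0 in between. Without group D replicate 3, none of the 10 met the rule. Whether this library was handled or labelled differently could not be told from the labels, so the day 24 level of these 10 rests on it.

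The 10 lncRNAs were closest to each other in proportion on day 0 and in group D replicate 3, and varied more in replicates 1 and 2 of group D. Relative to group A replicate 3, where each was highest, group A replicate 1 stood at 0.345 to 0.476, replicate 2 at 0.400 to 0.637 and group D replicate 3 at 0.556 to 0.821. Group D replicate 1 stood at 0.025 to 0.0566 and replicate 2 at 0.0027 to 0.0195. In groups B and C the only value above 0 was 0.266 FPKM, of XLOC_007008 in group C replicate 2. XLOC_004912 (46.5, 85.8 and 135 FPKM on day 0, then 5.38, 1.27 and 84.7 on day 24) and XLOC_005235 (53.2, 50.8 and 116, then 6.56, 1.74 and 95.1) are examples. XLOC_007955 had 40.9, 59.3 and 98.8 FPKM on day 0 and 2.96, 0.843 and 61.8 on day 24. XLOC_014039 had 15.8, 16.1 and 33.1 FPKM on day 0 and 1.77, 0.0894 and 20.6 on day 24, where its highest replicate was 230.2 times the lowest. The low member of the set was XLOC_012616, with 9.97, 9.82 and 24.6 FPKM on day 0 and 0.613, 0.39 and 15.3 on day 24.

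**Figure D3:**
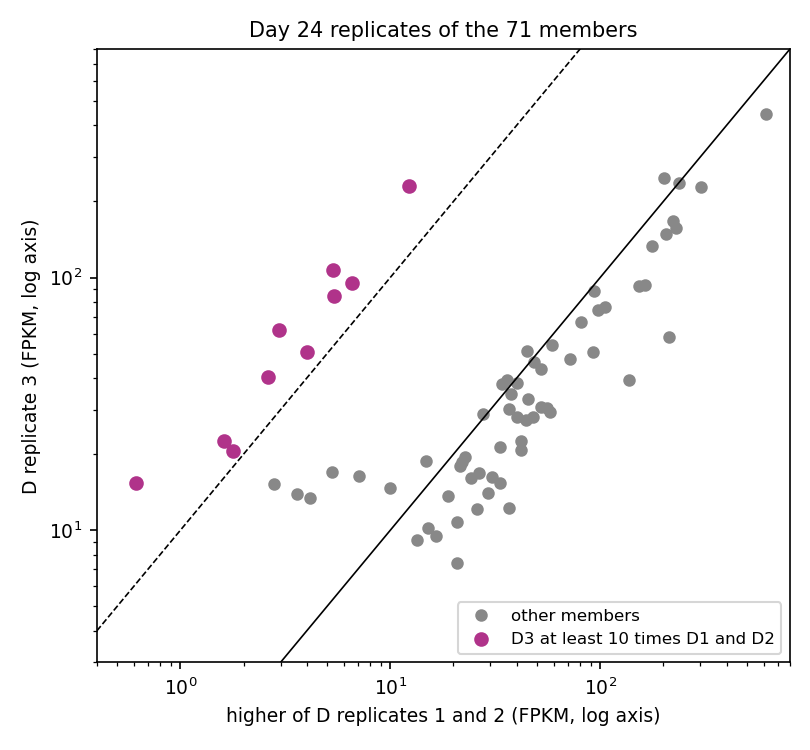
Replicate 3 of group D against the higher of replicates 1 and 2 for the 71 members, in FPKM on log axes, with a solid line at equal values and a dashed line at a ratio of 10. The 10 purple points lie at 11.6 to 25.01 times, 5 grey points at 2.31 to 5.45 times, and the rest at 1.48 times or less.

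The libraries took the same order for these 10 lncRNAs as for the number of mRNAs detected. The choice fixed part of this order. The rule places groups B and C below groups A and D. The set was formed for a group D replicate 3 far above replicates 1 and 2. The median of the set was 94.8 FPKM in group A replicate 3, 56.2 in group D replicate 3, 44.2 and 36.8 in group A replicates 2 and 1, 3.48 and 0.703 in group D replicates 1 and 2, and 0 in groups B and C. The mRNAs above 0 numbered 12886, 12789, 12660, 12636, 11480 and 11133 in these 6 libraries in turn, and 11061 or fewer in groups B and C. What the number of detected genes had to do with the level of these lncRNAs was not tested. Another 5 members, XLOC_005792, XLOC_008777, XLOC_011698, XLOC_004852 and XLOC_007868, had a group D replicate 3 of 2.31 to 5.45 times the higher of the other replicates (chosen after their values were seen). Of these, XLOC_005792 had 23.3, 14.2 and 31.0 FPKM on day 0, was listed at 0 on days 8 and 16 and had 2.80, 2.12 and 15.3 on day 24, the lowest ratio of day 24 to day 0 of the members, 0.294. Without group D replicate 3 its log2 ratio moved from -1.76 to -3.21, and XLOC_007955 (-5.13) and XLOC_004912 (-4.74) were lower. With quantile normalization XLOC_008777 (-1.90) was lower than XLOC_005792 (-1.81). These 15 members and XLOC_002512 are the 16 that did not meet the rule without group D replicate 3. Of them, XLOC_002512, XLOC_004852 and XLOC_011698 still met the ratio of 1.5 and the last condition without it. They dropped out only because their mean fell under 5 FPKM.

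In each of the remaining members, group D replicate 3 was at most 1.48 times the higher of the other replicates. Over the 61 members outside the set of 10, the median was 33.3, 36.8 and 29.5 FPKM in replicates 1, 2 and 3 of group D and 28.6, 25.9 and 31.3 in group A. It was 1.98 to 5.15 in group B and 4.80 to 5.73 in group C. Their median on day 24 was no lower in replicates 1 and 2 of group D than in replicate 3.

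Day 16 against day 8 is the contrast whose direction the rule did not use, since it takes the highest value of the 2 days together. The rule does limit the values of both days from above, and 13 members listed at 0 in both groups could not differ. The shares below are therefore not free of the choice, and they are a description. No member was called between groups C and B by limma (background 0.399%, 4 of 1002 lncRNAs), with 8 at an unadjusted p under 0.05 (11.3% of the members, against 7.09% of all lncRNAs tested). The median log2 fold change was 0.16 over the members and 0 over all lncRNAs tested. The members' values ran from -1.30 to 2.38. The fit put 40 members (56.3%) higher in group C, 18 lower and 13, those listed at 0 in both groups, level, against 491 higher (49.0%) and 424 lower of all 1002. All 3 day 16 values lay above all 3 day 8 values in 7 members (9.86%, background 5.93%) and below them in 1, XLOC_012691 (1.41%, background 6.63%). A missed threshold does not show that the 2 days were alike.

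The 4 members with the largest fold changes between days 16 and 8 were each listed at 0 in at least 1 library of group B. XLOC_009020 had 5.257, 0 and 0 FPKM on day 8 and 7.83, 14.5 and 5.258 on day 16 (log2 fold change 2.38, standard error 0.71, limma adjusted p = 0.674), so that the highest day 8 and the lowest day 16 value were all but equal. XLOC_012757 had 12.3, 0 and 21.0 on day 8 and 16.3, 30.5 and 30.7 on day 16 (1.98, standard error 0.85, limma adjusted p = 0.679). XLOC_004933 had 1.17, 0 and 0 on day 8 and 3.11, 4.02 and 3.896 on day 16 (1.86, standard error 0.51, limma adjusted p = 0.498).

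XLOC_009284 had 1.10, 0 and 5.01 FPKM on day 8 and 5.44, 7.12 and 8.53 on day 16 (log2 fold change 1.78, standard error 0.60, limma adjusted p = 0.679). Leaving out 1 library changed this. Without group B replicate 3 XLOC_009284 was called (limma adjusted p = 0.0398, log2 fold change 2.47), and without group B replicate 1 XLOC_009020 was (limma adjusted p = 0.0336, log2 fold change 3.26). In each case it was the only member called, with 11 of 1002 lncRNAs called without group B replicate 3 (1.1%) and 5 without replicate 1 (0.499%). Without group B replicate 2, where XLOC_012757 was listed at 0, the log2 fold change of XLOC_012757 was 0.62.

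**Figure D4:**
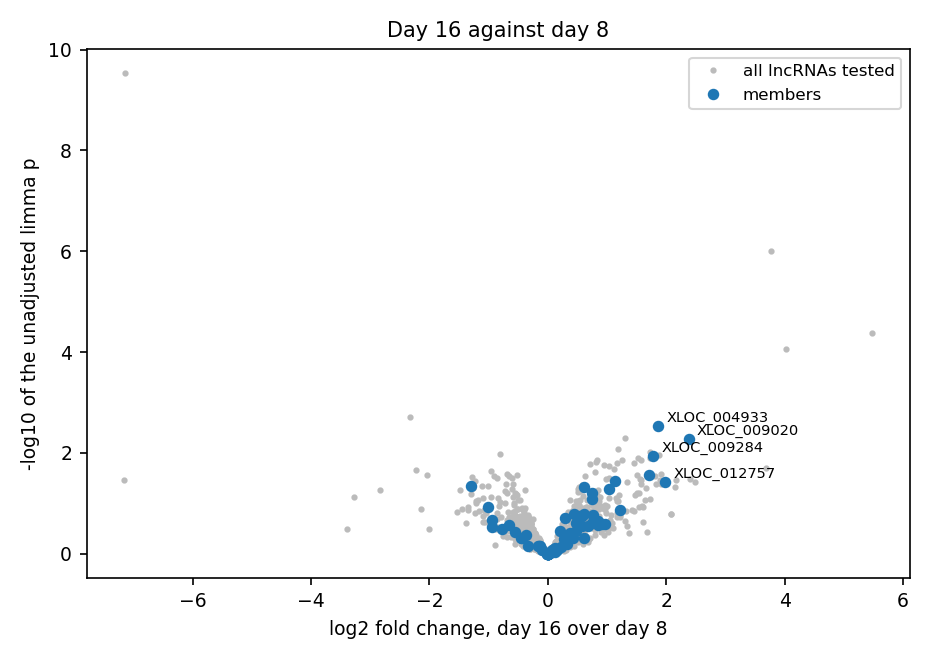
Log2 fold change of day 16 over day 8 against -log10 of the unadjusted limma p for the 1002 lncRNAs tested (grey) and the 71 members (blue). The members lay between -1.30 and 2.38, and none of them was among the 4 lncRNAs called.

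How far single libraries decided the membership was described by leaving them out. Each library was left out in turn, the rule was applied to the other 11, and the value of the library left out was compared with them. For a library of groups A or D the value had to be above 0 and at least 1.5 times the highest value of groups B and C, and for one of groups B or C the lowest value of groups A and D had to be at least 1.5 times it. Of the lncRNAs found without it, group A replicates 1, 2 and 3 placed 70 of 76, 68 of 80 and 65 of 66 on that side (92.1%, 85.0% and 98.5%). The background, over all lncRNAs of the window, was 29.5%, 24.0% and 24.5%.

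An lncRNA that the rule found in 11 libraries and that lay on the side of the pattern in the twelfth was nearly always a member by construction, and the rule was set with all 12 libraries known, so these shares restate the choice and support nothing. Group B replicates 1, 2 and 3 placed 71 of 73, 71 of 73 and 71 of 82 on the side of the pattern (background 26.4%, 31.0% and 24.6%). Group C placed 71 of 78, 71 of 85 and 71 of 78 (background 21.9%, 21.2% and 28.5%). Group D placed 70 of 75, 71 of 92 and 56 of 61 (background 25.6%, 22.1% and 21.7%). Group D replicate 2 had the lowest share, 77.2%, and no library placed all of them. The replicates of a day share its storage time, and the labels do not give the sequencing runs. No test was run on these shares.

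**Figure D5:**
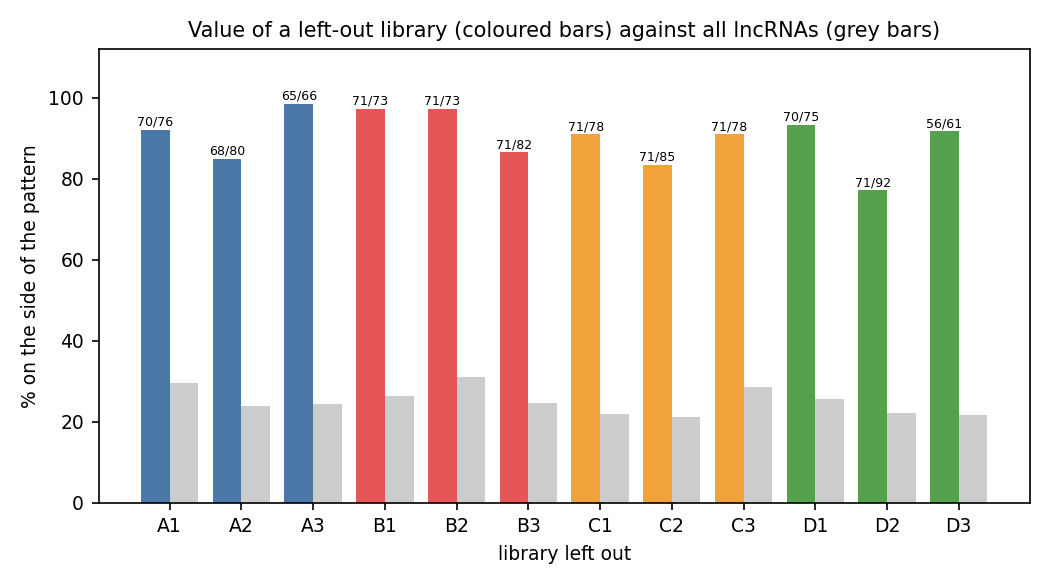
Share of lncRNAs, in percent, whose value in a left-out library lay on the side of the pattern (bars from 0). Coloured bars give the lncRNAs found by the rule in the other 11 libraries, with their numbers above, and grey bars all lncRNAs of the level window, which reached 21.2% to 31.0% against 77.2% to 98.5%.

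Compared with other RNAs of the same libraries, the 71 members were 8.26% of the 860 lncRNAs of the level window. The opposite pattern, with the lowest value of groups B and C at least 1.5 times the highest of groups A and D, was met by 44 lncRNAs (5.12%). It had no counterpart of the last condition, without which 73 lncRNAs met the rule of the members. Of the 9138 mRNAs with a mean FPKM in the same window, 485 met the rule of the members (5.31%) and 508 the opposite one (5.56%). These shares were not tested, since genes are not independent replicates and the rule was set with the values known.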

How the data were processed

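RNA-seq libraries from 12 fruiting body samples, 3 for each of 4 days of storage at 4 ℃, were used. According to the labels and methods, the authors removed ribosomal RNA, used cutadapt 2.7 for trimming, FastQC 0.11.8 for quality, HISAT2 2.1.0 for alignment and StringTie 1.3.3b for assembly and FPKM. The deposited values are FPKM of 1003 lncRNAs and 13103 mRNAs, normalized by the authors for transcript length and mapped reads. Without read counts, no count model was fitted and no counting interval is given. Columns were mapped to day and replicate by name, and 0 columns were left unused.

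The members were found on FPKM as deposited. For the tests, each library's FPKM was scaled by the median ratio of the mRNAs above 0 in all 12 libraries to their geometric means (factors 0.983 to 1.02). Kept were 1002 lncRNAs that reached an FPKM of 1 in 3 or more libraries. Their log2(scaled FPKM + 1), a scale that understates changes of low lncRNAs, was fitted by limma 3.58.1 (R 4.3.3) with the 4 days as groups and a trended variance, and p-values were adjusted over all of them by Benjamini-Hochberg. The procedure was tested on simulated data. Python 3.11.15 and matplotlib 3.10.9 made the figures. The main fit held no block. Same-numbered replicates of groups A and D deviated together (correlation of their deviations from the group means 0.180 to 0.388, across lncRNAs), unlike those of the other pairs of groups (-0.177 to 0.153, not all above 0.1). After this was seen, a fit with the replicate number as a block between A and D was added. The paper divided the fruiting bodies randomly among the days and states no matching of replicates, so this block has no basis in the design.

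The members, the lists and the rules for naming were chosen with earlier results of these data known. Named are the lncRNAs that the paper describes as reversing or pairs with enzymes, and the members with the widest gaps, the highest and lowest means (lowest XLOC_012616 and XLOC_011698, 5.06 and 5.10 FPKM), the extreme ratios of day 24 to day 0, the largest differences between days 16 and 8, the widest replicates and values next to the limit. XLOC_014039, XLOC_001479 and XLOC_002676 had the widest day 24 replicates, up to 230 times. Gene identifiers matched 0 entries of the reference table. Alternatives were other ratios, level windows, pseudocounts, filters and scalings, fits of 2 groups, a replicate block and leaving out each library.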

Additional observations from a re-analysis of the deposited data

How the results depend on the processing

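The number of lncRNAs that met the rule was 45 at a ratio of 2, 23 at a ratio of 3 and 27 with quantile-normalized FPKM, of which 20 were among the 71. Without 1 library it was 61 to 92, and with group D replicates 1 and 2 left out together 124 (chosen after seeing the data), 66 of them members. Quantile normalization, which forces 1 distribution on all libraries, called 47 members lower in group B and 44 in group C than in group A, and 39 and 40 higher in group D than in groups B and C (of all lncRNAs, 37.5%, 37.2%, 27.3% and 22.2% were called in either direction). Without 1 library these numbers were 67 to 71, 61 to 68, 58 to 67 and 48 to 67. Of all lncRNAs, 43.1% to 50.2%, 39% to 48.3%, 26.9% to 39.5% and 20.2% to 28.9% were then called in either direction. Between groups D and A, 9 members were called with quantile normalization (6 higher, 3 lower, background 22.7%) and 1, XLOC_012757, with only these 2 groups in the fit, with or without the replicate block (the blocked one chosen after seeing the data). Without 1 library it was 0 to 13, with 2 without group B replicate 2 (XLOC_003962 and XLOC_012757) and 13 without group D replicate 3. Those 13 were the set of 10 with XLOC_005792 and XLOC_008777, lower, and XLOC_002512, higher. The all-lncRNA background there was 22.6%. Between groups C and B, 0 to 1 members were called without 1 library (background 0.2% to 1.1%). The adjusted p of XLOC_009020 was 0.0336 to 0.992 over its alternatives. The replicate block in the fit of all groups left the calls between groups C and B at 0 and moved no number of called members by more than 1.5 times. The cause of these changes was not tested. Without read counts, a value listed at 0 is no proof of absence.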

Other observations

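The pattern of the set of 10 lncRNAs also appeared outside the members. In all, 68 lncRNAs were listed at 0 in groups B and C, above 0 in group A and at least 10 times higher in group D replicate 3 than in replicates 1 and 2, and 9 of them were members. Of the 68, 28 had a mean FPKM in the level window, and 56 were listed at 0 in replicate 1 or 2 of group D, which the rule does not allow. The 59 outside the members had a median of 0.378, 0.485 and 0.625 in group A replicates 1 and 2 and group D replicate 3, relative to group A replicate 3, and the 10 had 0.403, 0.488 and 0.631. Single lncRNAs of the 59 varied more widely, from 0.0709 to 0.81, from 0.203 to 1.53 and from 0.179 to 1.88.

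Among mRNAs, 1046 had that pattern. Their mean FPKM was 0.0254 to 2.55, with a median of 0.162, so that 0 reached the level window, while the 68 lncRNAs lay at 1.22 to 76.8 FPKM with a median of 4.14. Relative to group A replicate 3, the medians of these mRNAs were 0.415, 0.544 and 0.920 in group A replicates 1 and 2 and group D replicate 3. They were described after the values were seen, with no test.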
